A study of Mus musculus with 2 samples.

Results

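Acute-phase genes and genes of Il6 signalling were measured in single cells of the stromal vascular fraction (SVF) of mouse epididymal white adipose tissue (eWAT). The 9 genes were named beforehand, and results of these counts were known when they were named, so that values measured here had a part in choosing them. They are 9 of the 27998 features counted. There was 1 library from C57BL/6 mice on a low-fat diet (LFD) and 1 library from C57BL/6 mice on a high-fat diet (HFD), and the study's methods give the mice as C57BL/6J males. The groups follow each library's own title and treatment label, since a protocol note shared by both libraries names only the low-fat diet. Both diets were fed for 24 wk from 6 wk of age, no transgene or drug is named, and how many mice were pooled is not given in the sources used here. With 1 library per diet no test between diets was possible, so the differences are descriptions of these libraries. Intervals are 95% intervals for counting error only and leave out the spread between mice. Those of levels and ratios treat each UMI as an independent draw, so they also leave out the spread between cells.

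The acute-phase response is a change in secreted proteins that accompanies inflammation, best known from the liver but also present in adipose stroma. Interleukin 6 (Il6) binds its own receptor, Il6ra, and the pair engages the shared signalling chain Il6st (gp130). Janus kinases bound to Il6st then phosphorylate the transcription factor Stat3, which induces its own feedback inhibitor, Socs3. Saa3, Hp (haptoglobin, which binds free haemoglobin), Serpina3n (an inhibitor of serine proteases) and Lcn2 (lipocalin 2, which binds bacterial siderophores) are acute-phase products.

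The LFD library held 1113 barcodes with 7356278 unique molecular identifiers (UMIs, 1 per captured transcript), and the HFD library held 1144 barcodes with 8412325 UMIs. The libraries shared 0 barcodes. Barcodes with at least 200 genes, 1057 on LFD and 1117 on HFD, were placed in classes by summed UMIs of marker genes. A fibroblast had at least 10 UMIs of Dcn, an interstitial fibroblast also had at least 3 of Pi16, Dpp4 and Sema3c, and a mesothelial cell had at least 2 of Upk3b and Msln. An endothelial cell had at least 3 UMIs of Cdh5 and Cldn5, a mural cell at least 5 of Rgs5, Kcnj8, Abcc9 and Notch3, and a macrophage at least 10 of C1qa, C1qb and C1qc. This gave 200 LFD and 205 HFD fibroblasts, 148 and 72 interstitial fibroblasts, 32 and 14 mesothelial cells, 98 and 115 endothelial cells, and 229 and 321 macrophages. Only 5 and 6 mural barcodes were found, and no comparison between diets was made in them. They enter the shares of UMIs by class and the profiles of like genes.

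Genes outside the rules were compared with the class names. Pdgfra, a receptor of mesenchymal cells, was seen in 86% of LFD and 83.4% of HFD fibroblasts, and Ptprc, the leukocyte antigen CD45, in 1% and 0.976% of them. Ptprc was seen in 75.1% of LFD and 81.0% of HFD macrophages, and Pecam1, an endothelial adhesion gene, in 86.7% and 83.5% of endothelial cells. Adipoq, an adipocyte gene, was also seen in 31.6% of LFD and 13% of HFD endothelial cells, against 0.5% and 0% of fibroblasts. A further 66 LFD and 120 HFD barcodes met rules of more than 1 lineage and were left out of the classes, and 51 and 92 of these met the endothelial and mural rules and no other.

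The windows around the transcription start sites of members with a motif match, and of Serpina3n as the member with the largest ratio in fibroblasts, are shown because Socs3 and the acute-phase products are textbook targets of Stat3 and of C/EBP factors. They run from 250 bases before to 50 bases after the start, 5′ to 3′ on the gene's strand. The set of RefSeq windows used, on GRCm38.p6, held 8 of the 9 genes and lacked Hp. Capitals mark TTCNNNGAA (the STAT letters, the same on both strands) and TTGCNNAA or its other strand TTNNGCAA (C/EBP letters), and no matches overlapped. The positions are chr11:117969317-117969616 (minus strand) for Socs3, chr5:30012864-30013163 (plus strand) for Il6, chr7:46715627-46715926 (minus strand) for Saa3, chr2:32387690-32387989 (minus strand) for Lcn2 and chr12:104406458-104406757 (plus strand) for Serpina3n.
Socs3: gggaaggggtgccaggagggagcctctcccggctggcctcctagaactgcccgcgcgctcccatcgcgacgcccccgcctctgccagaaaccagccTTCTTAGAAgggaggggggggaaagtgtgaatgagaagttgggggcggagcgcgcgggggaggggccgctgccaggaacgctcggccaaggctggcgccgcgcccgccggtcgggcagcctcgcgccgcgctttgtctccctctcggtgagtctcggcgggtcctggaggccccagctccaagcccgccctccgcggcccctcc
Il6: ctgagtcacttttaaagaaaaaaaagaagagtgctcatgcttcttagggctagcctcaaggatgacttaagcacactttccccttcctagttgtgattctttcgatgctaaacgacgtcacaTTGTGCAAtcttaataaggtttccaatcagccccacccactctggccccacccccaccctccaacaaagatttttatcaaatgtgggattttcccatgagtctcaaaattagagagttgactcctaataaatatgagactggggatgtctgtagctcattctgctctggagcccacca
Saa3: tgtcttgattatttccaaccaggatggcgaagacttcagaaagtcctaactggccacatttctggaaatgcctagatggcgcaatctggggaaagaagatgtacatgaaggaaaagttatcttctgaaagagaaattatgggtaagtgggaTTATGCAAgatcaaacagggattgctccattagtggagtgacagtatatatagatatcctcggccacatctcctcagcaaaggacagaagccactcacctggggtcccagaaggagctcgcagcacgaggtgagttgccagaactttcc
Lcn2: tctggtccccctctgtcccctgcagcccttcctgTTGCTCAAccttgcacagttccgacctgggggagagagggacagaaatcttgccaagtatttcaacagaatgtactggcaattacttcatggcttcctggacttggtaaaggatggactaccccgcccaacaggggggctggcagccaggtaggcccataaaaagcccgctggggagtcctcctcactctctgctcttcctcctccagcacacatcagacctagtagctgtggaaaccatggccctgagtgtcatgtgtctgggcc
Serpina3n: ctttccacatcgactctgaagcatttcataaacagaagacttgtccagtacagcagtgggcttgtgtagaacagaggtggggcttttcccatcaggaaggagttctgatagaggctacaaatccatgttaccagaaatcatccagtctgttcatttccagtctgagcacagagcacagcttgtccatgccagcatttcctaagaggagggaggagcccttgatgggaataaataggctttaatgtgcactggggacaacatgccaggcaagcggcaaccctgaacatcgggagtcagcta

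The STAT letters were found in 1 of the 8 windows, Socs3, and in 8.30% of 32851 windows of all genes. The C/EBP letters were found in 3 of the 8, Il6, Saa3 and Lcn2, and in 10.8% of all windows. The match began 154 bases before the RefSeq start in Socs3, 128 in Il6, 99 in Saa3 and 216 in Lcn2. The whole Socs3 and Lcn2 windows lie inside the annotated genes located below, whose starts are farther upstream. Their matches are therefore upstream of the RefSeq start only. Serpina3n, Il6ra, Il6st and Stat3 had no match of either kind in these letters and this window.

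On GRCm38 the annotated genes lie at chr12:104406729-104414329 (Serpina3n, plus strand), chr8:109575128-109579172 (Hp, minus), chr7:46711998-46715700 (Saa3, minus) and chr2:32384633-32388252 (Lcn2, minus). Il6 lies at chr5:30013114-30019981 (plus), Il6ra at chr3:89864059-89913196 (minus), Il6st at chr13:112464070-112510086 (plus) and Socs3 at chr11:117966079-117970047 (minus).

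Levels are in CPM, which scales a gene's UMIs in a class to 1000000 UMIs of that class. The acute-phase products divided by cell type, as the plot of each gene's UMIs by class shows. Fibroblasts and interstitial fibroblasts together were the main holders of Hp, Serpina3n and Il6, macrophages held most Il6ra, and Lcn2 lay mostly outside the fibroblasts, which held 7.21% of its UMIs on LFD and 14.1% on HFD. Il6st and Stat3 were measured in all 5 compared classes.

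**Figure D1:**
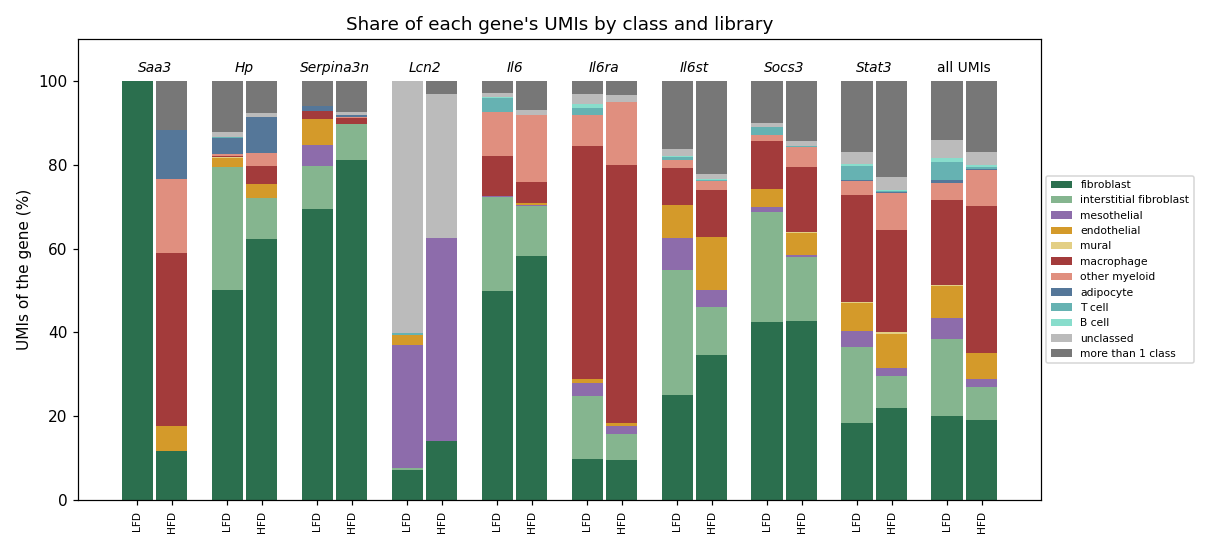
Stacked bars give the percentage of each gene's UMIs that fell in each class of barcodes, for LFD and HFD, with the share of all UMIs at the right, and legend names outside the 5 compared classes stand for their marker rules only (T cell for Cd3 genes, adipocyte for Adipoq, Plin1 and Cidec). Fibroblasts held 69.4% of Serpina3n UMIs on LFD and 81.2% on HFD, and macrophages 55.7% and 61.5% of Il6ra UMIs.

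Serpina3n was higher on HFD in fibroblasts. Fibroblasts held 68 UMIs (46.4 CPM, 36.1 to 58.9) on LFD and 310 UMIs (194 CPM, 173 to 217) on HFD, a ratio of 4.19 (3.21 to 5.53). The UMIs came from 46 of 200 cells on LFD and 122 of 205 on HFD, so the gene was seen in more cells and not in a few strong ones. The share of fibroblasts with a UMI was 23.0% (17.4 to 29.5%) on LFD and 59.5% (52.5 to 66.3%) on HFD, and 3.59% and 17.2% after each cell was thinned to 1000 UMIs. No LFD fibroblast held 10 Serpina3n UMIs, and the highest cell held 7 on LFD and 16 on HFD.

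Interstitial fibroblasts, the Pi16+ and Dpp4+ cells of the septa that are regarded as early progenitors, showed the same direction from a lower level. They held 10 Serpina3n UMIs in 9 of 148 cells (7.5 CPM) on LFD and 33 UMIs in 16 of 72 cells (49.1 CPM) on HFD, a ratio of 6.55 (3.15 to 14.9). One HFD cell held 11 of the 33. Outside these classes the gene was scarce. Endothelial cells held 6 UMIs on LFD and 0 on HFD, and macrophages held 2 and 5. Cells with Cd3 genes, the T-cell marker set, gave the background of free RNA, with 0 Serpina3n UMIs in 70 LFD cells (up to 4.29% of cells with a UMI) and 0 in 21 HFD cells (up to 14.3%). Their median depth was 2710 and 1781 UMIs against 7919.5 and 7559 in fibroblasts.

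Hp did not follow Serpina3n. In fibroblasts it stood at 570 CPM (532 to 610) on LFD and 521 CPM (486 to 558) on HFD, from 834 and 831 UMIs, a ratio of 0.915 (0.830 to 1.01). The cells behind these sums were 92 of 200 and 82 of 205. Fibroblasts with at least 5 Hp UMIs were 54 of 200 on LFD and 34 of 205 on HFD, while the highest cells held 97 and 84 UMIs on HFD and 40 and 33 on LFD. The tenth of fibroblasts with the most Hp carried 55.8% of its UMIs on LFD and 76.4% on HFD, so Hp came from fewer and stronger cells on HFD. Without the 3 highest cells of each library the log2 ratio was -0.41 in place of -0.13, and with the cell limits of the study's methods, which kept 52 LFD and 74 HFD fibroblasts, it was -1.69.

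In interstitial fibroblasts Hp was lower on HFD, at 367 CPM (335 to 401) on LFD and 198 CPM (166 to 235) on HFD, a ratio of 0.539 (0.442 to 0.655). The cells with a UMI were 52 of 148 and 20 of 72. Of 32 LFD and 14 HFD mesothelial cells, 0 held an Hp UMI. Endothelial cells had 68.8 CPM (38 UMIs) and 81.3 CPM (42 UMIs) of Hp, a ratio of 1.18 (0.744 to 1.89), and with every barcode that met the endothelial rule the log2 ratio turned from 0.24 to -0.63.

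Hp is also made by adipocytes. Barcodes that met no class rule and held at least 3 UMIs of Adipoq, Plin1 and Cidec were 30 on LFD and 9 on HFD, with medians of 1155.5 and 802 UMIs, too shallow to name as cells. They had 1087 CPM of Hp (65 UMIs in 23 barcodes) on LFD and 8335 CPM (115 UMIs in 9 barcodes) on HFD, a ratio of 7.67 (5.61 to 10.6). On HFD 2 of the 9 held 49 and 37 of those UMIs. The 4 adipocyte check genes summed to 3.41 and 2.51 CPM in fibroblasts, 284 and 116 CPM in endothelial cells and 22.3 and 26.3 CPM in macrophages, and their part in the Hp of these classes was not tested.

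In macrophages Hp was low, with 6 UMIs in 5 cells (4.05 CPM) on LFD and 58 UMIs in 29 cells (19.8 CPM) on HFD, a ratio of 4.89 (2.11 to 13.9). The highest HFD cells held 17 and 9 of the 58 UMIs. When barcodes of more than 1 class were kept, the sums were 78 and 63 UMIs and the log2 ratio turned from 2.19 to -1.29. Cells with Cd3 genes held 2 Hp UMIs among 70 LFD cells and 0 among 21 HFD cells.

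Saa3, an acute-phase serum amyloid made outside the liver, was confined to very few cells in both libraries. On LFD all 61 UMIs of the library lay in 5 fibroblasts, and 3 of them held 25, 17 and 14 UMIs. These 3 fibroblasts had 3111, 2400 and 1797 UMIs in all and 0 Hp UMIs each. Of these 3, the cell with 14 UMIs held 13 UMIs of Dcn, near the limit of 10. On HFD fibroblasts held 2 Saa3 UMIs in 1 cell. The level was 41.7 CPM (31.9 to 53.5) on LFD and 1.25 CPM (0.152 to 4.53) on HFD, but without the 3 highest cells the sums were 5 and 0 UMIs. The HFD library held 17 Saa3 UMIs in 10 cells, of which macrophages had 7 in 3 cells, and macrophages on LFD had 0.

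Among the compared classes Lcn2 was highest in mesothelial cells. Mesothelial cells, which cover the surface of the fat pad, held 61 UMIs in 18 of 32 cells (167 CPM, 128 to 215) on LFD and 48 UMIs in 10 of 14 cells (309 CPM, 228 to 409) on HFD, a ratio of 1.85 (1.24 to 2.74). One HFD cell held 17 of the 48, and without the 3 highest cells of each library the log2 ratio of Lcn2 was 0.34 in place of 0.89. After thinning it was 2.30, from 2 and 5 UMIs. Fibroblasts held 15 and 14 Lcn2 UMIs, and macrophages 0 and 0. Lcn2 is also a neutrophil granule protein. The 4 neutrophil check genes (S100a8, S100a9, Csf3r and Retnlg) summed to 0 UMIs in fibroblasts, interstitial fibroblasts and endothelial cells, and to 11.5 and 12.6 CPM in macrophages, nearly all of it Csf3r.

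**Figure D2:**
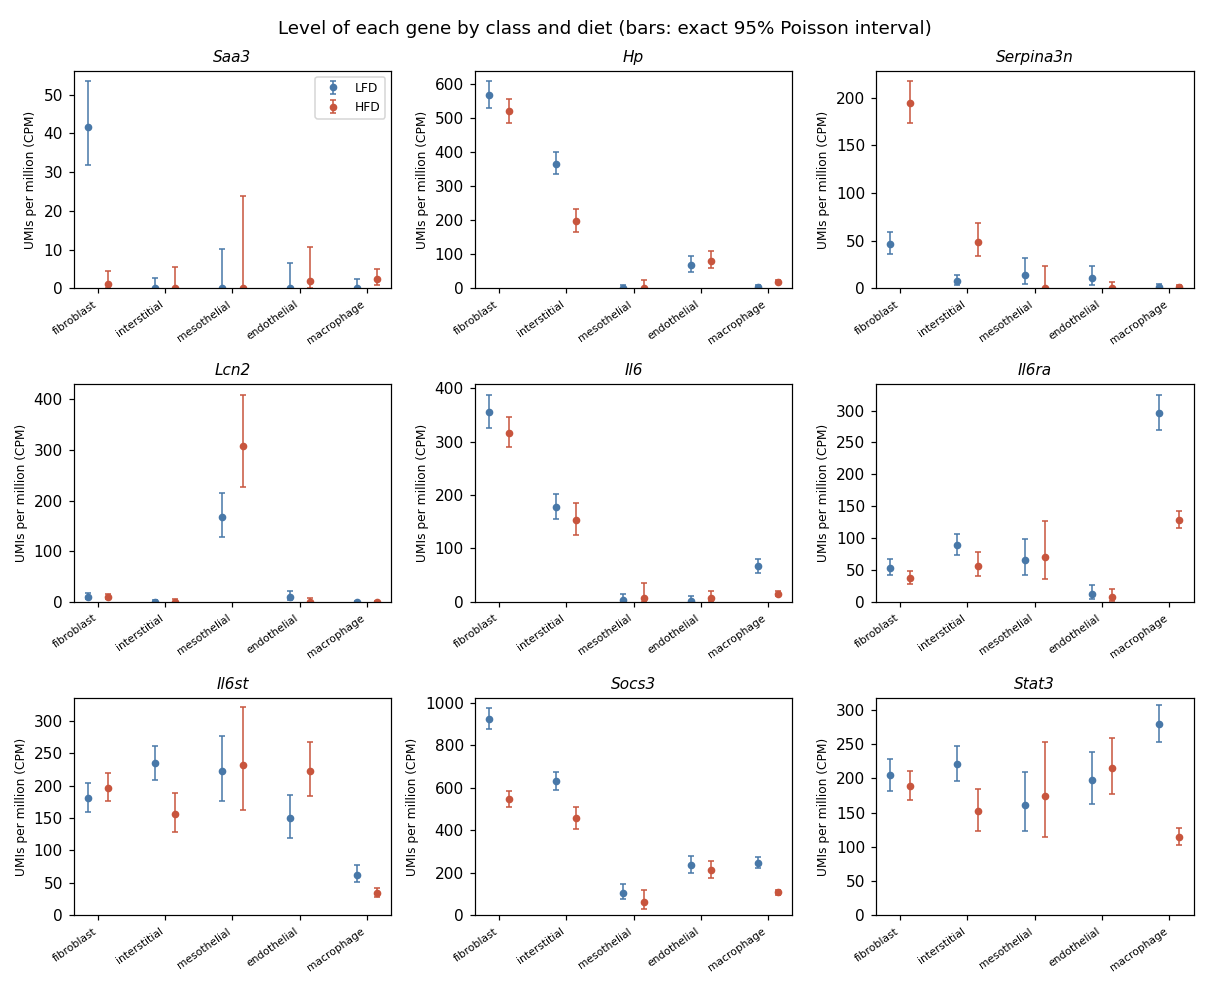
Points give CPM of each gene in 5 classes on LFD (blue) and HFD (red), with exact 95% Poisson bars on linear axes that start at 0 and differ between genes. Serpina3n in fibroblasts stood at 46.4 and 194 CPM, and Il6ra in macrophages at 296 and 128 CPM.

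Fibroblasts held more Il6 UMIs than any other class. They had 521 of 1047 Il6 UMIs (49.8%) on LFD and 505 of 866 (58.3%) on HFD. Their level was 356 CPM (326 to 388) on LFD and 317 CPM (290 to 346) on HFD, a ratio of 0.890 (0.786 to 1.01). The cells with a UMI were 81 of 200 (40.5%, 33.6 to 47.7%) and 108 of 205 (52.7%, 45.6 to 59.7%), and 20% and 21.6% after thinning. The highest fibroblasts held 36, 34 and 28 UMIs on LFD and 17, 17 and 15 on HFD. The highest cells were thus weaker on HFD, while the shares of cells after thinning were close. With the study's cell limits the log2 ratio of Il6 turned from -0.17 to 0.68.

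Interstitial fibroblasts had 178 and 153 CPM of Il6 (0.862, 0.677 to 1.09). The order of levels was the same in both libraries within the fibroblast lineage, fibroblasts above interstitial fibroblasts, and their intervals did not overlap. Endothelial and mesothelial cells held at most 4 Il6 UMIs per library. Cells with at least 5 UMIs of Lyz2, a myeloid gene, that met no other rule had 376 CPM (309 to 453) on LFD and 188 CPM (158 to 222) on HFD, from 110 and 138 UMIs in 12 of 42 and 23 of 114 cells. On LFD this level was as high as that of fibroblasts, with overlapping intervals. Cells with Cd3 genes held 37 Il6 UMIs on LFD (124 CPM), in 3 of 70 cells and 28 of them in 1 cell, and 0 in 21 cells on HFD. In macrophages Il6 stood at 66.2 CPM (98 UMIs in 27 of 229 cells) on LFD and 15.4 CPM (45 UMIs in 25 of 321 cells) on HFD, a ratio of 0.232 (0.159 to 0.334). On LFD 3 macrophages held 20, 16 and 14 of the 98 UMIs. With the cell limits of the study's methods the log2 ratio of Il6 in macrophages was -0.74 in place of -2.10, from 14 and 13 UMIs, which ends the 2-fold difference.

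**Figure D3:**
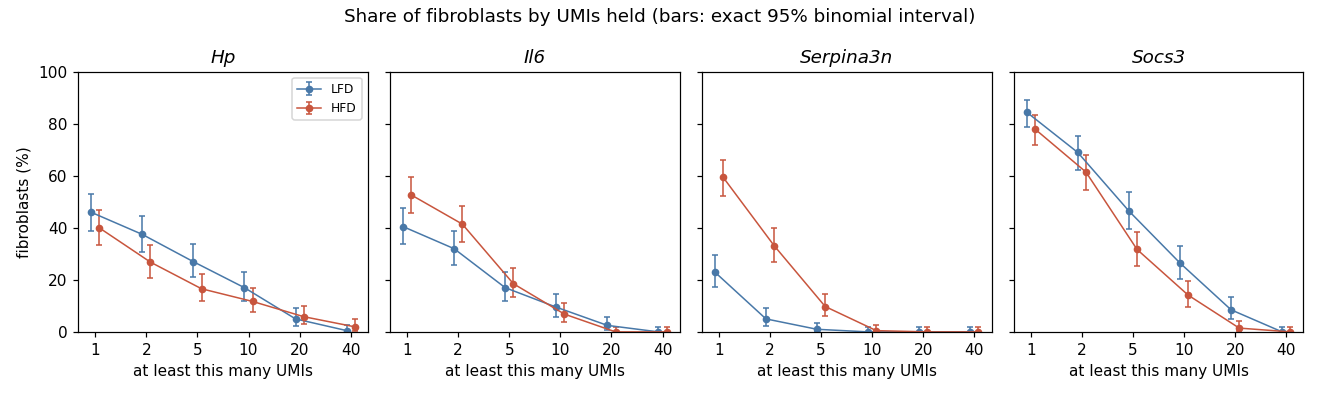
Lines give the percentage of fibroblasts with at least the number of UMIs on the x axis, with exact 95% binomial bars, for LFD (blue, 200 cells) and HFD (red, 205 cells). For Serpina3n 23.0% of LFD and 59.5% of HFD fibroblasts held a UMI, and for Il6 2.50% and 0% held at least 20.

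The receptor subunits differed in where they were highest. Il6ra, the ligand-binding subunit, was highest in macrophages of the 5 classes, at 296 CPM (269 to 325) on LFD and 128 CPM (116 to 142) on HFD, a ratio of 0.434 (0.377 to 0.499), in 183 of 229 and 191 of 321 cells. The log2 ratio of -1.20 became -0.93 with the mean of single-cell CPM and -0.91 with the study's cell limits, both under 2-fold. Interstitial fibroblasts followed with 88.5 and 56.5 CPM, mesothelial cells with 65.8 and 70.8 CPM and fibroblasts with 53.3 and 37.0 CPM, and on HFD the intervals of these 3 classes overlapped. Endothelial cells held 7 and 4 Il6ra UMIs. The annotated gene overlaps Gm42809 on the other strand.

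Il6st, the shared chain, was lowest in macrophages of the 5 classes, at 62.8 CPM on LFD and 34.9 CPM on HFD (0.555, 0.415 to 0.743). The log2 ratio of -0.85 became -0.15 with the study's cell limits, from 12 and 17 UMIs, and -1.33 after thinning, from 18 and 10 UMIs. Fibroblasts had 181 and 197 CPM (1.09, 0.921 to 1.29), and interstitial fibroblasts 234 and 156 CPM (0.667, 0.530 to 0.835). Mesothelial cells had 222 and 232 CPM of Il6st. Their log2 ratio was 0.07, and it lay between -0.72 and 0.18 under the alternative settings given at the end. Endothelial cells had 150 and 223 CPM (1.48, 1.11 to 1.99), and 1 HFD endothelial cell held 21 of 115 UMIs. The barcodes that met the endothelial and mural rules had 155 and 146 CPM (0.94, 0.729 to 1.21), and with every barcode that met the endothelial rule the log2 ratio was 0.07 in place of 0.57. Of the Il6+ fibroblasts, 26 of 81 on LFD and 32 of 108 on HFD also held an Il6ra UMI, and 61 and 87 held an Il6st UMI.

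Stat3 was at a like level in the stromal classes. Fibroblasts had 204 and 189 CPM (0.924, 0.785 to 1.09), endothelial cells 197 and 215 CPM (1.09, 0.829 to 1.43), and mesothelial cells 162 and 174 CPM (1.07, 0.654 to 1.72). After thinning the log2 ratio of Stat3 was 0.75 in endothelial cells, from 15 and 27 UMIs, and 2.38 in mesothelial cells, from 1 and 3 UMIs, in place of 0.12 in both. With the study's cell limits mesothelial cells held 0 and 2 Stat3 UMIs. Interstitial fibroblasts had 221 and 152 CPM of Stat3 (0.688, 0.544 to 0.865), and with the study's cell limits the log2 ratio turned from -0.53 to 0.11, from 23 and 19 UMIs. In macrophages the level was 279 CPM (253 to 307) on LFD and 114 CPM (102 to 127) on HFD, a ratio of 0.409 (0.353 to 0.473). The mean of single-cell CPM gave a log2 ratio of -0.88 in place of -1.29, under 2-fold. Stat3 overlaps Stat5a on the other strand, at chr11:100885098-100939540 (GRCm38).

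Socs3, the feedback inhibitor, was the most widely detected of the 9 genes in fibroblasts, in 169 of 200 cells on LFD and 160 of 205 on HFD. Its level was 927 CPM (878 to 977) on LFD and 547 CPM (512 to 585) on HFD, a ratio of 0.591 (0.542 to 0.644). Fibroblasts with at least 10 UMIs were 53 on LFD and 29 on HFD. Interstitial fibroblasts had 632 and 457 CPM (0.723, 0.632 to 0.825), endothelial cells 237 and 213 CPM (0.899, 0.691 to 1.17) and macrophages 247 and 109 CPM (0.439, 0.377 to 0.512). After thinning the log2 ratio of macrophages was -0.38 in place of -1.19, from 49 and 54 UMIs, and that of fibroblasts -0.44 in place of -0.76.

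**Figure D4:**
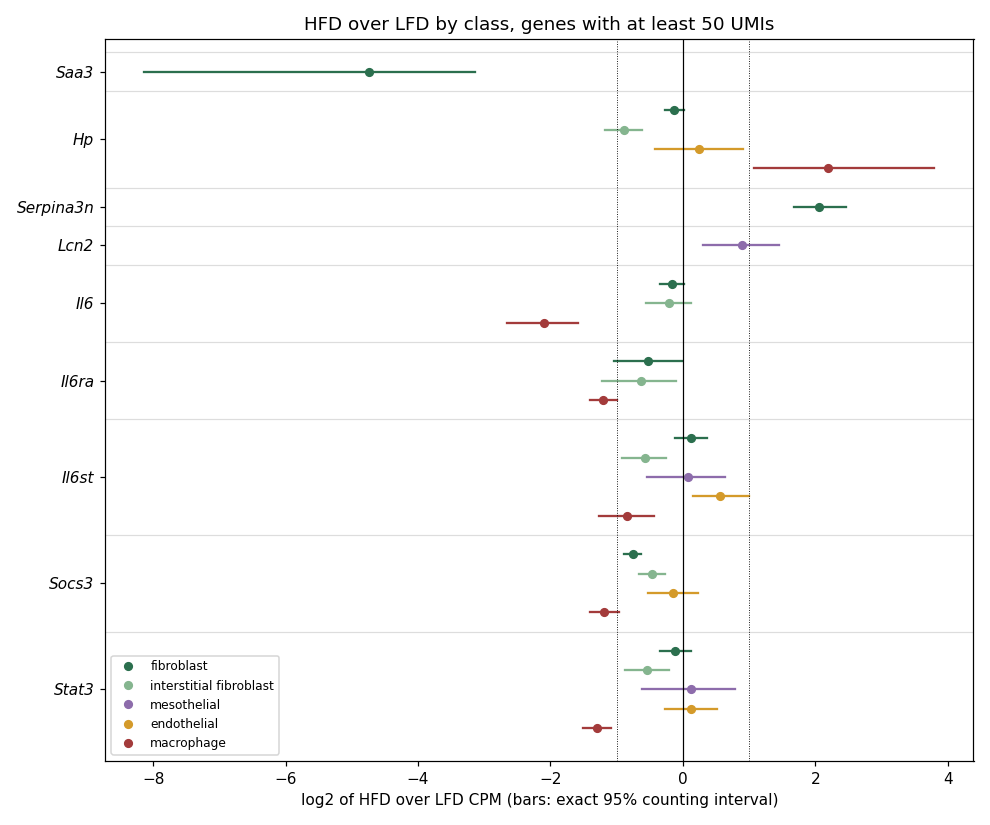
Points give the log2 ratio of HFD over LFD CPM for each gene and class with at least 50 UMIs, with exact 95% counting bars, and dotted lines mark a 2-fold difference. Saa3 in fibroblasts (61 and 2 UMIs) is the lowest point and Hp in macrophages and Serpina3n in fibroblasts are the highest.

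A 2-fold difference among genes with at least 50 UMIs was rare in most classes. In fibroblasts 1.52% of 6379 genes were at least 2-fold higher on HFD and 1.96% lower. Of the 8 members counted there, Serpina3n was higher and Saa3 lower, and the median log2 ratio was -0.15 against -0.01 over all genes. In interstitial fibroblasts 0 of 6 members passed in either direction, where 1.43% of 5048 genes were higher and 1.84% lower, with a median of -0.56 against 0.02. There Hp passed 2-fold without the 3 highest cells (-1.39) and with the study's cell limits (-1.47, from 41 and 11 UMIs), and Il6ra with those limits (-1.33, from 11 and 3 UMIs) and after thinning (-1.77, from 17 and 2 UMIs). In mesothelial cells 0 of 3 passed (1.1% of 1631 genes higher, 1.47% lower), with a median of 0.12 against 0.02. In endothelial cells 0 of 4 passed (0.648% of 3397 genes higher, 1.44% lower), with a median of 0.18 against 0.01. In macrophages Hp was higher and Il6, Il6ra, Stat3 and Socs3 were lower, of 6 members, where 5.13% of 7155 genes were higher and 5.88% lower, with a median of -1.20 against -0.02. As the members were selected on these same counts, nothing is read from these counts.

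The macrophage class did not hold the same cells on both diets. Cells with at least 3 UMIs of Cd9, a tetraspanin of lipid-associated macrophages, were 0 of 229 on LFD and 72 of 321 on HFD. On HFD those 72 cells had 68.7 CPM of Il6ra, 60.7 of Stat3 and 47.2 of Socs3, and the other 249 macrophages had 173, 154 and 155 CPM. Their median depths were 11257 and 6451 UMIs, so the sets were not matched in depth. Among cells with at least 2 UMIs of Timd4 and Ccl24, genes of resident macrophages, 187 on LFD and 85 on HFD, Il6ra stood at 307 CPM (277 to 339) on LFD and 184 CPM (152 to 220) on HFD. Stat3 stood at 285 and 199 CPM, Socs3 at 251 and 170 CPM, and Il6st at 65.4 and 58.6 CPM in these cells. Il6 was at 48.7 CPM (37.2 to 62.5) and 38.6 CPM (25.0 to 56.9) in them, with intervals that overlapped. The other 42 LFD macrophages held 37 of the 98 Il6 UMIs (164 CPM), all in 4 cells. The other 236 HFD macrophages had 8.78 CPM, from 14 cells. Il6ra, Stat3 and Socs3 were lower on HFD within the resident set too, by less than over the whole class. The part of the make-up of the class in its diet differences was not tested. These splits were chosen after the values were known. Immediate early genes, which also move with tissue digestion, summed to 16279 CPM on LFD and 9478 CPM on HFD in macrophages, with 6 of 14 at least 2-fold lower, and to 23352 and 19000 CPM in fibroblasts with 0 of 14. Their part in the Socs3 values was not tested.

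Socs3 was higher in cells of the fibroblast lineage that held Il6, and so were immediate early genes. In LFD fibroblasts Socs3 was at 690 CPM (634 to 751) in the 119 cells without an Il6 UMI, 1061 CPM in the 38 cells with 1 to 3 and 1303 CPM (1195 to 1418) in the 43 cells with 4 or more. In HFD fibroblasts the levels were 349 CPM (306 to 397) in 97 cells, 632 CPM in 55 cells and 746 CPM (671 to 828) in 53 cells. Socs3 was lower on HFD in each Il6 group. The groups are not matched within, as the highest cell of the last group held 36 Il6 UMIs on LFD and 17 on HFD. Across cells, Spearman's rho of Il6 with Socs3 was 0.31 on LFD (200 fibroblasts) and 0.35 on HFD (205), and that of Socs3 with the immediate early genes was 0.46 and 0.46. Il6 had a rho of 0.22 and 0.17 with the immediate early genes and 0.25 and 0.19 with the total UMIs of the cell. The immediate early genes summed to 21755 CPM in LFD fibroblasts without Il6 and 25467 CPM in those with 4 or more Il6 UMIs, and to 17974 and 19736 CPM on HFD. Their part in the Socs3 levels was not tested. Cells of 1 library share handling and depth, and the correlation is given with no test.

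Interstitial fibroblasts showed the same order on LFD, with 406 CPM of Socs3 in 93 cells without Il6, 785 in 34 and 1302 in 21. On HFD their levels were 360, 671 and 672 CPM, from 50, 13 and 9 cells. In interstitial fibroblasts the rho of Socs3 with the immediate early genes was 0.61 and 0.49 and that of Il6 with them 0.31 and 0.39, beside 0.42 and 0.37 for Il6 with Socs3. In macrophages the rho of Il6 with Socs3 was 0.12 and 0.13, too weak in counts this sparse to read. By the same Il6 groups LFD macrophages had 242, 290 and 258 CPM of Socs3, from 202, 20 and 7 cells. On HFD the level was 101 CPM (89.4 to 114) in 296 cells without Il6 and 221 CPM (161 to 295) in 23 cells with 1 to 3 UMIs. The 2 HFD macrophages with 4 or more held 0 Socs3 UMIs.

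**Figure D5:**
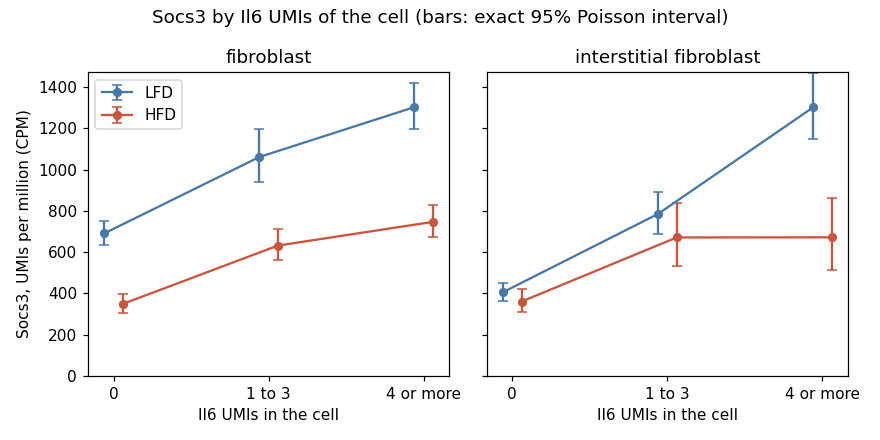
Points give Socs3 CPM in cells grouped by their Il6 UMIs, for fibroblasts and interstitial fibroblasts on LFD (blue) and HFD (red), with exact 95% Poisson bars. In LFD fibroblasts the level was 690 CPM at 0 Il6 UMIs and 1303 CPM at 4 or more.

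Fibroblasts with at least 4 Il6 UMIs carried a set of other transcripts in both libraries. These cells were compared with fibroblasts with 0 Il6 UMIs, over genes with at least 50 UMIs in each library. Among genes that were higher on both diets, those that differed most were Ptx3, Ccl7, Has2, Adamts4, Has1 and Socs1. Ptx3, a long pentraxin of the innate response, was at 324 against 31.3 CPM on LFD and 425 against 99.9 CPM on HFD. Ccl7, a monocyte chemokine, was at 628 against 99.0 CPM and 713 against 180 CPM. Has1, a hyaluronan synthase, was at 604 against 178 CPM and 1043 against 295 CPM, and Adamts4, a protease of the matrix, at 453 against 120 CPM and 500 against 145 CPM. Among genes that were lower, Txnip was at 105 against 459 CPM and 78.8 against 352 CPM. The complement gene C2 was at 19.5 against 89.0 CPM and 22.8 against 101 CPM. C7, another complement gene, was at 212 against 643 CPM and 89.2 against 285 CPM. These genes were named after their values were seen.

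On HFD the 68 fibroblasts with at least 2 Serpina3n UMIs had 860 CPM of Hp and the 83 with 0 had 153 CPM. Of the 497 Hp UMIs of those 68 cells, 3 cells held 97, 53 and 45, and over all HFD fibroblasts Spearman's rho of Hp with Serpina3n was 0.18 (-0.04 on LFD), a weak value in sparse counts. On LFD the levels were 544 CPM in 10 cells and 583 CPM in 154 cells, the former from 48 Hp UMIs. A UMI of each gene was held by 19 of 92 Hp+ fibroblasts on LFD (20.7%, against 23.0% of all fibroblasts) and 56 of 82 on HFD (68.3%, against 59.5%). Fibroblasts with at least 5 Hp UMIs had less Cilp, a matrix protein, at 64.8 against 237 CPM on LFD and 26.5 against 146 CPM on HFD, and more Plac8, at 151 against 34.9 CPM and 136 against 54.8 CPM. Their Ptx3 was at 207 against 116 CPM on LFD and 441 against 134 CPM on HFD.

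Other genes of the pathway were counted by list in fibroblasts, where 1.52% of all genes were at least 2-fold higher and 1.96% lower, so that counts of 0 in short lists are near the background. The receptor, kinase and inhibitor lists include the members. Of the other acute-phase genes, 0 of 6 with at least 50 UMIs differed 2-fold. Cp (ceruloplasmin, a copper-carrying ferroxidase) stood at 768 CPM on LFD and 478 CPM on HFD (0.622, 0.567 to 0.682), and Steap4, a metalloreductase of adipose tissue, at 361 and 442 CPM (1.22, 1.09 to 1.37). Of the receptors of the Il6 family, Il6ra and Il6st among them, 0 of 5 differed 2-fold. Il11ra1, which binds Il11, had 278 and 379 CPM (1.36, 1.20 to 1.55), Osmr 141 and 154 CPM and Lifr 107 and 112 CPM. Of the kinases and Stat factors, Stat3 among them, 0 of 4 differed 2-fold, with Jak1 at 385 and 382 CPM and Jak2 at 36.9 and 20.1 CPM (0.544, 0.340 to 0.858). Of the inhibitors, Socs3 among them, 0 of 5 differed 2-fold, with Socs1 at 75.8 and 62.7 CPM (0.827, 0.625 to 1.09) and Socs2 at 16.4 and 31.4 CPM (1.91, 1.15 to 3.25).

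Of 11 counted genes known to respond to Stat3, Timp1 alone passed 2-fold in fibroblasts. Timp1, an inhibitor of matrix metalloproteinases, stood at 43.0 CPM (63 UMIs) on LFD and 408 CPM (650 UMIs) on HFD, a ratio of 9.47 (7.31 to 12.5). Among the others, Zfp36, which destabilises inflammatory transcripts, had 1087 and 605 CPM (0.557, 0.513 to 0.603), Myc 283 and 193 CPM, and Cebpb 938 and 1173 CPM (1.25, 1.17 to 1.34). In interstitial fibroblasts Timp1 had 19.5 and 210 CPM (10.8, 7.04 to 17.0), while Socs1, another feedback inhibitor, had 84.8 and 31.2 CPM (0.369, 0.220 to 0.591). In that class 1 of the 11 counted genes that respond to Stat3 was at least 2-fold higher and 1 lower, Bcl6 (37.5 and 16.4 CPM, 0.436, 0.205 to 0.849), beside 1.43% of all genes higher and 1.84% lower. Of the 5 counted inhibitors 0 were higher and 1 was lower, Socs1, while Socs2 had 49.5 and 84.8 CPM (1.71, 1.18 to 2.48).

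In endothelial cells 1 other acute-phase gene was at least 2-fold higher and 1 lower, of 2 counted, beside 0.648% of all genes higher and 1.44% lower. Lrg1, a leucine-rich glycoprotein of activated endothelium, had 39.8 CPM (22 UMIs) on LFD and 161 CPM (83 UMIs) on HFD, a ratio of 4.04 (2.50 to 6.79). Mt1, a metallothionein, had 88.7 and 32.9 CPM (0.371, 0.200 to 0.656).

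In macrophages 1 of 3 counted ligands of the Il6 family was at least 2-fold higher and 2, Il6 among them, were lower, beside 5.13% of all genes higher and 5.88% lower. Oncostatin M (Osm), a cytokine of the Il6 family that signals through Il6st, had 6.08 CPM (9 UMIs) on LFD and 28.0 CPM (82 UMIs) on HFD, a ratio of 4.61 (2.31 to 10.4). Of 4 counted receptors 0 were higher and 2 lower, Il6ra and Lifr. Lifr, the receptor chain for Lif, had 291 and 98.4 CPM (0.339, 0.291 to 0.394). Of 7 counted genes of Il1 and NF-kB input, 2 were at least 2-fold higher and 0 lower. Il1b had 72.3 and 261 CPM (3.61, 2.94 to 4.46) and Tnf 116 and 253 CPM (2.19, 1.85 to 2.6). Of 5 counted acute-phase genes other than the members, 1 was higher and 2 were lower. Il1rn, the antagonist of the Il1 receptor, had 29.7 and 69.7 CPM (2.34, 1.69 to 3.33), Cp 56.8 and 21.9 CPM (0.385, 0.274 to 0.540) and Mt2, a metallothionein, 279 and 121 CPM (0.433, 0.375 to 0.501).

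The genes whose profile was most like each member, by Pearson's r of log2(CPM + 10) over 12 values (6 classes on each diet) and 8731 genes, were as follows. For Hp they were Adm (0.944) and Fyn, for Serpina3n Fbln7 (0.950), Cxcl14 and Sned1, and for Lcn2 Prlr (0.990), Gsta4 and Wfdc1. For Il6 they were Hk2 (0.973), Ank2 and Negr1, for Il6ra Sgpp1 (0.972), Notch2 and Epb41l1, and for Il6st Cyr61 (0.957), Amotl2 and Cuedc1. For Socs3 they were Nav3 (0.871), Cyp2j9 and Thsd7a. For Stat3 they were Wdr33 (0.922), Casc3 (0.922) and Ddx42 (0.910), and without the mural barcodes these r were 0.717, 0.706 and 0.665. The values of 1 library share its depth, so these are descriptions.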

How the data were processed

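Raw UMI counts per gene and barcode were deposited by the authors for each library, made with Cell Ranger on mm10 from droplet 3′ libraries. The header of each count table names Cell Ranger 3.0.2. The counts were not normalized, and the cell limits of the study's methods (between 200 and 2500 genes, mitochondrial share under 5%) were applied here only as an alternative. IDs were matched to GENCODE M21 (27722 of 27998). Members, lists and class rules were chosen with earlier results of these data known. UMIs were summed by class and divided by all UMIs of the class. Levels have exact Poisson intervals, shares exact Clopper-Pearson intervals and ratios exact conditional binomial intervals, all 95%. Log2 ratios had 0.5 UMI added. Genes with at least 50 UMIs were counted as different at 2-fold. Where 0 cells held a UMI, the limit is 3 counts. Named genes were the members, list genes with 50 UMIs that differed 2-fold or belong to the receptor complex or its kinases, and the 3 genes most like each member. Others named were chosen after their values were seen. Some genes that this rule names are not reported here. Doublets were called with Scrublet (Scanpy 1.11.5, expected rate 1%) for an alternative and were otherwise removed only as barcodes of more than 1 class. The ratio and its interval were tested on sums simulated from the Poisson model that the interval assumes. That simulation held no single cells, so it cannot show how the interval holds where few cells carry the UMIs. Python 3.11.15, numpy 2.4.6 and scipy 1.17.1 were used.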

Additional observations from a re-analysis of the deposited data

Results flagged for a closer look

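Hp was higher on HFD in macrophages and lower in interstitial fibroblasts, with intervals on opposite sides of 1, and the log2 ratios differed by 3.07. Il6st was higher on HFD in endothelial cells and lower in interstitial fibroblasts and in macrophages, and the log2 ratios differed by 1.14 and 1.42. These differences were not tested, as there was 1 library per diet. The Hp value of macrophages turned sign when barcodes of more than 1 class were kept. With those barcodes kept the log2 ratio of Il6st in endothelial cells was 0.07 in place of 0.57. With the study's cell limits that of Il6st in macrophages was -0.15 in place of -0.85.

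Lcn2 was highest outside the classes. Among barcodes of no class, 4 on LFD and 1 on HFD held at least 5 UMIs of Epcam, an epithelial adhesion gene, and these had 1784 and 1933 CPM of Lcn2. They carried 124 of the 208 Lcn2 UMIs of the LFD library (59.6%) and 34 of the 99 of the HFD library (34.3%). Krt8, a keratin, was at 2129 and 2047 CPM in them, and Foxj1, a regulator of motile cilia, had 40 and 4 UMIs. This limit on Epcam was set after the Lcn2 values were seen, and the barcodes are not named as a cell type.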

How the results depend on the processing

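No paired analysis was possible because there was 1 library per diet and the values come from no test. Of 108 recomputed log2 ratios in fibroblasts, 97 stayed within the counting interval and 11 moved beyond it. The ratios that moved were 10 of 72 in interstitial fibroblasts, 4 of 36 in mesothelial cells, 4 of 48 in endothelial cells and 13 of 72 in macrophages, where 1 more reversed. Serpina3n lay between 2.02 and 2.34 and Saa3 between -7.67 and -3.57 under all 12 alternatives. With the study's limits, which left 52 LFD and 74 HFD fibroblasts, the log2 ratios were -1.69 for Hp, -1.70 for Lcn2 (4 and 2 UMIs), 0.68 for Il6, -0.21 for Il6st and -0.36 for Socs3, and 34 genes were at least 2-fold higher and 27 lower in place of 97 and 125. With cells thinned to 1000 UMIs they were -0.34 for Hp, 3.64 for Lcn2 (0 and 6 UMIs), -0.44 for Socs3 and -0.45 for Stat3. Hp was at -0.35 with barcodes of more than 1 class kept and at -0.41 without the 3 highest cells. In macrophages, Hp was at -1.29 with barcodes of more than 1 class kept. The cause of these moves was not tested. Scrublet called 16 LFD and 19 HFD barcodes, of which 8 and 13 met more than 1 class rule. Fewer than 50 UMIs limit Lcn2 in fibroblasts and Serpina3n outside them, and Saa3 in fibroblasts is limited by 3 cells that held 56 of 61 UMIs.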
